A study of Rattus norvegicus with 21 samples.

Results

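The comparison described here sets the livers of male Harlan Sprague-Dawley rats given 244.6 mg/kg of 2-ethylhexyl diphenyl phosphate against those of rats given 122.5 mg/kg. The compound, EHDP in the study's design text and EDHP in the sample labels, is an organophosphate ester used as a plasticiser and flame retardant. The arrays were chosen by their titles, which gave 3 arrays at 244.6 mg/kg and 3 arrays at 122.5 mg/kg, 6 of the 21 in the series. Rats of both groups had 4 daily doses in corn oil by oral gavage, and pieces of the left liver lobe were dissected on day 5. The protocol equates the doses with 0.675 and 0.338 mmol/kg. The other groups were 6 arrays of vehicle (corn oil alone), 3 at 61.2, 3 at 489.2 and 3 at 978.5 mg/kg. The labels give no genetic change and no treatment other than EHDP and corn oil. They do not tie an array to an animal beyond its replicate number, so p-values measure the spread between these arrays.

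The liver handles a foreign compound through nuclear receptors such as CAR and PXR and the stress sensor NRF2, which switch on genes for oxidation, conjugation and export. Hepatocytes of an adult rat are mostly at rest and can re-enter the cell cycle after loss of tissue or under mitogens. Genes for DNA synthesis are used first on that path, and genes for the spindle and for chromosome separation follow. RNA from a piece of liver is a mixture, so a change in the number of cells of a type and a change in RNA per cell cannot be told apart.

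Each value is a log2 RMA signal of an Affymetrix probe set, and 1 probe set was kept for each of 14218 genes. Medians of all 21 arrays lay between 6.33 and 6.41. Each of the 6 arrays compared had a mean correlation with the others of 0.990 to 0.993. The array median averaged 6.37 in both groups (exact permutation p = 0.9, two-sided) and the mean correlation 0.991 at 244.6 mg/kg against 0.992 at 122.5 mg/kg (exact permutation p = 0.3, where 3 against 3 arrays cannot give less than 0.1). The typical gene had an SD between arrays of 0.101 at 244.6 mg/kg and 0.124 at 122.5 mg/kg. Hepatocyte albumin (Alb) was at 15.34 to 15.35 in all 6 arrays, so the tissue was liver by its defining marker.

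Genes of cell division stood higher in the 244.6 mg/kg livers as a group, while no single gene passed the test. Limma called 0 of 14218 genes, 0% higher and 0% lower, and the smallest adjusted p was 0.152. At an unadjusted p under 0.05, 479 genes were higher (3.37%) and 198 lower (1.39%). The median difference over all genes was -0.003 on the log2 scale with quartiles of -0.07 and 0.07, and 48.8% of genes were higher at 244.6 mg/kg. Without 244.6 mg/kg replicate 3 limma called 32 genes, of which 32 were higher, 3 were in the cell cycle list and 25 were among the 114 described next. A fit with array quality weights, in which 122.5 mg/kg replicate 2 had a weight of 6.19, called 322 higher and 155 lower. Because the unweighted fit of all arrays called no gene, values below describe the arrays, and each adjusted p is that of limma over all genes.

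**Figure D1:**
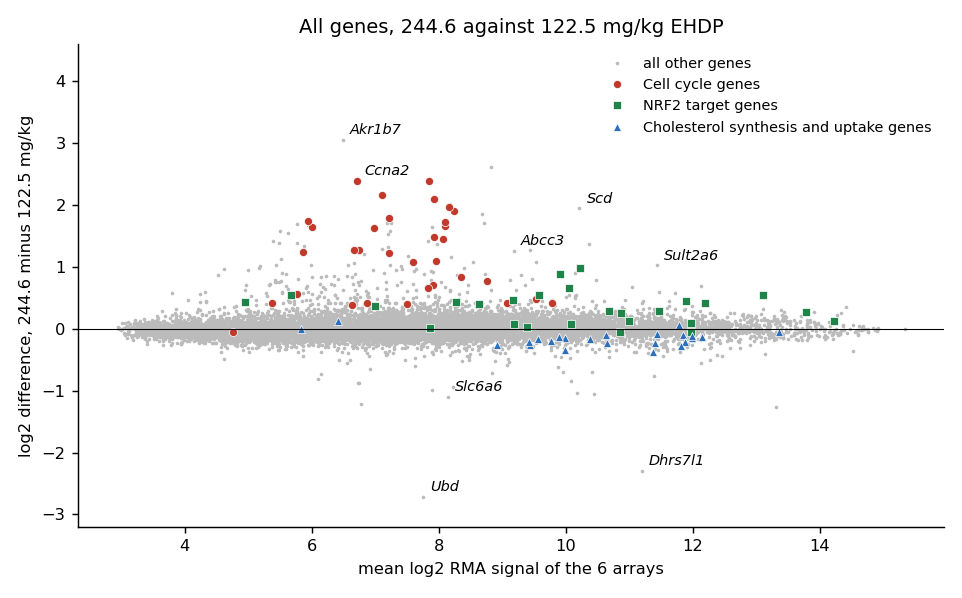
Each point is a gene; the x axis is its mean log2 RMA signal over the 6 arrays and the y axis its log2 difference, 244.6 minus 122.5 mg/kg. Cell cycle genes (red circles) reach up to 2.39 on the y axis, NRF2 target genes (green squares) lie mostly above 0, and cholesterol synthesis and uptake genes (blue triangles) lie mostly just below it.

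The 2 groups were also compared by overlap, that is, by whether all 3 arrays of one dose lay beyond all 3 of the other. In 936 genes (6.58%) the 244.6 mg/kg arrays were all higher and in 643 (4.52%) all lower. Counts without overlap in the lists below are to be read beside these 2 shares. With a difference of at least 1.5-fold added, 114 genes remained higher (0.802%) and 7 lower (0.0492%). Of these 114 genes, 24 were in the list of 33 cell cycle genes, which is 21.1% of the 114 and 72.7% of the list. The mean of 97 of the 114 was highest at 244.6 mg/kg among all 6 dose groups, against 14.0% of all genes. The 114 were picked for high values at 244.6 mg/kg, so a large share was built in.

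The cell cycle list held 33 measured genes, and 30 of them were higher in all 244.6 mg/kg arrays than in any 122.5 mg/kg array. At an unadjusted p under 0.05, 30 of the 33 were higher and 0 lower. Their median difference was 1.25 on the log2 scale (quartiles 0.55 and 1.72), against -0.003 over all genes. It lay between 0.89, without 122.5 mg/kg replicate 1, and 1.47, without 244.6 mg/kg replicate 3. Only Ccne2, which encodes cyclin E2, a G1 to S cyclin, had a negative difference, of -0.05 ± 0.14 (SE), and its sign turned under several settings. All arrays of Ccne2 at both doses lay under the 20th percentile of all values, so its difference has no reliable size. The 7 members whose level was above the median of all genes had a smaller median difference, of 0.66. Under the 20th percentile of all values, where RMA signals carry little, stood the 122.5 mg/kg mean of 7 of the 33, against 19.7% of all genes.

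Levels of the same list were read in every array as the mean over its members minus that of vehicle. This list mean was 1.79, 1.63 and 1.06 in the 244.6 mg/kg arrays and -0.42, 0.51 and 0.79 in the 122.5 mg/kg arrays. The third array at 244.6 mg/kg was the lowest of its dose and the first array at 122.5 mg/kg the lowest of its own, and the groups did not overlap. Single members followed these 2 arrays. The 122.5 mg/kg replicate 1 was the lowest of the 6 arrays for 27 members, and the 244.6 mg/kg replicate 3 was the lowest of its dose for 30.

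**Figure D2:**
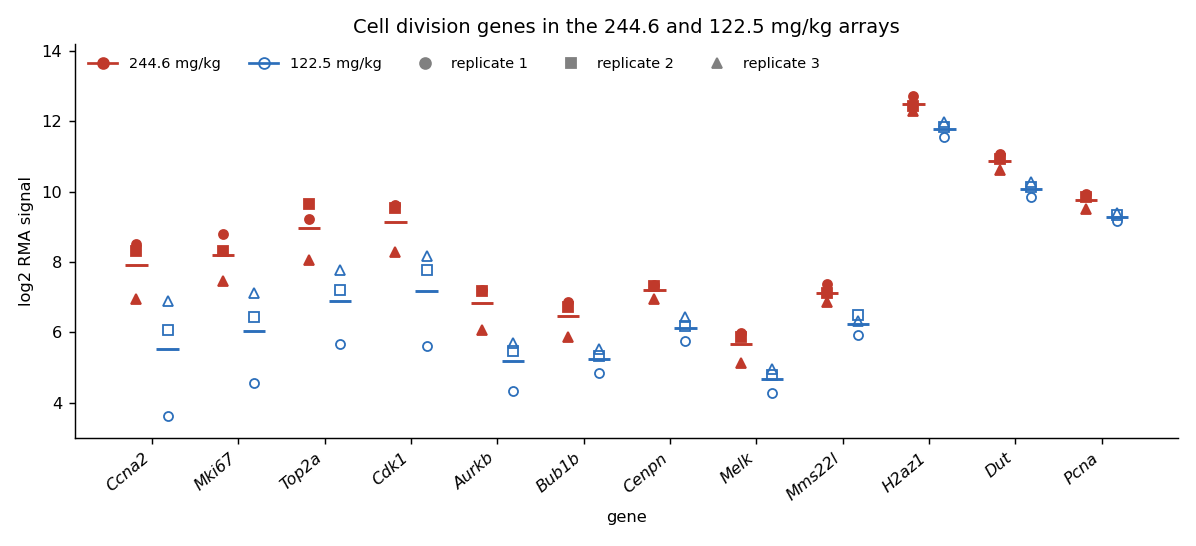
Log2 RMA signal (y axis) of 12 cell division genes (x axis) in the 244.6 mg/kg arrays (red, filled, left) and the 122.5 mg/kg arrays (blue, open, right); symbols mark the replicates and lines the means. All red points of a gene lie above its blue points, and the blue circle, replicate 1 at 122.5 mg/kg, is the lowest point of Ccna2 at 3.63 and of Mki67 at 4.55.

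Ccna2, cyclin A2, which acts in S phase and G2, had the largest difference of the list. It was at 8.51, 8.30 and 6.95 in the 244.6 mg/kg arrays, against 3.63, 6.06 and 6.88 in the 122.5 mg/kg arrays. The groups came within a narrow margin of each other, since the lowest 244.6 mg/kg array was barely above the highest 122.5 mg/kg array. The difference was 2.39 ± 0.74 (SE), with an adjusted p of 0.403, and it was 1.45 without 122.5 mg/kg replicate 1. That array, and with it the 122.5 mg/kg mean, lay under the 20th percentile of all values, 5.56, and the difference was 1.75 with such values set to 5.56. Cdk1, the kinase that drives entry into mitosis, was at 9.61, 9.52 and 8.30 at 244.6 mg/kg and at 5.61, 7.77 and 8.16 at 122.5 mg/kg. Its difference was 1.96 ± 0.69 (adjusted p = 0.584), and the mitotic cyclins Ccnb1 and Ccnb2 differed by 1.79 ± 0.61 and 1.90 ± 0.64. Without 122.5 mg/kg replicate 1 these differences were 1.18 for Cdk1, 1.02 for Ccnb1 and 1.18 for Ccnb2. Ccnd1, the growth-factor responsive cyclin D1, differed by only 0.42 ± 0.55 (adjusted p = 1), and its groups overlapped.

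Markers of proliferating cells and chromosome factors behaved alike. Mki67, the antigen counted in Ki-67 staining, was at 8.79, 8.30 and 7.47 in the 244.6 mg/kg arrays and at 4.55, 6.43 and 7.11 in the 122.5 mg/kg arrays. Every 244.6 mg/kg array was above every 122.5 mg/kg array, with a difference of 2.16 ± 0.70 (adjusted p = 0.456). Without 122.5 mg/kg replicate 1 it was 1.42, and with that array, which lay under the 20th percentile, set to 5.56 it was 1.82. Top2a, the topoisomerase that untangles sister chromatids, was at 9.21, 9.65 and 8.06 at 244.6 mg/kg and at 5.67, 7.21 and 7.77 at 122.5 mg/kg. It differed by 2.09 ± 0.54 (adjusted p = 0.245). Ect2, which places the cleavage furrow, differed by 2.38 ± 0.88 (adjusted p = 0.631), or by 1.37 without 122.5 mg/kg replicate 1.

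The promoters of 4 members with large differences in the mean are printed, because most of the list stood apart together. A CCAAT box, bound by the factor NF-Y, and a TTTGAA word, the core of the element called CHR that represses cell cycle genes in resting cells, are known from promoters of mitotic genes. Both words were picked after the values were seen, and both strands of the 250 bases before the annotated start were searched. Capitals mark a match to either word on either strand, and sequences are from RefSeq GRCr8, 5′ to 3′ in the direction of the gene. In Mki67 a TTTGAA match overlaps the reverse complement of the box.
Mki67 promoter, chr1:199952594-199952843, minus strand: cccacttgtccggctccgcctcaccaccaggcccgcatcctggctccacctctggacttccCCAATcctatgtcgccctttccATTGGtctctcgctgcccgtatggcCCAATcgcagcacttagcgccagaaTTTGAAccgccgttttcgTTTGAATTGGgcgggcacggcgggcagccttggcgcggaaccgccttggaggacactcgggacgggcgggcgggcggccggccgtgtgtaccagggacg
Top2a promoter, chr10:84473094-84473343, minus strand: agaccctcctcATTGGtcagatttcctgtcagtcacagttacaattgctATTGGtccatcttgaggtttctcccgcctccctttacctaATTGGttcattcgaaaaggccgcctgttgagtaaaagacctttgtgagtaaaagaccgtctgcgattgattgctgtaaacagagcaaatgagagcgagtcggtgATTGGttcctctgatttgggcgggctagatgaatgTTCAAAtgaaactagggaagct
Cdk1 promoter, chr20:19265043-19265292, plus strand: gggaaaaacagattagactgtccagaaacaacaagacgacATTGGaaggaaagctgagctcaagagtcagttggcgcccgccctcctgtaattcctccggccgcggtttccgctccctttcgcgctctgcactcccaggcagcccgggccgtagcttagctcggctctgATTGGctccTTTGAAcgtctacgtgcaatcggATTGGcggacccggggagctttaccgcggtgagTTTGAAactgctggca
Ccnb2 promoter, chr8:79981659-79981908, minus strand: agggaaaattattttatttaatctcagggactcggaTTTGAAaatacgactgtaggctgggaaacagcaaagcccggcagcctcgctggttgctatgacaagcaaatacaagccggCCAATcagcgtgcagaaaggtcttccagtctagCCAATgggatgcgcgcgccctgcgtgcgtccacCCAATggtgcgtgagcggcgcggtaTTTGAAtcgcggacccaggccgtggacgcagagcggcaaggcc
These 4 promoters held 3 or 4 CCAAT matches each and 1 or 2 TTTGAA matches. Of the 33 list members, 27 had a promoter in the table. CCAAT was in 20 of the 27 (74.1%) against 34.3% of all 27457 promoters, and TTTGAA in 9 (33.3%) against 16.0%. Both words were in 8 of the 27, and all 4 printed promoters were among these. Ccnb1, which is not printed, held 2 CCAAT matches and 0 TTTGAA matches. Ect2, not printed either, held 3 and 1. CCAAT was also in 8 of 10 promoters (80%) of clock genes peaking by day or at dusk, in 11 of 22 (50%) of the CAR and PXR list and in 5 of 24 (20.8%) of the NRF2 list, so the word was not particular to cell cycle genes. TTTGAA was in 0 of 10, 5 of 22 (22.7%) and 2 of 24 (8.33%) of these. A match is a string of letters and was not tested as a binding site.

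Mitotic regulators filled most of the list, and all 20 members for G2 and mitosis were higher in every 244.6 mg/kg array, by 0.70 to 2.39 with a median of 1.65. Aurkb, the kinase that corrects chromosome attachments, was at 7.21, 7.19 and 6.08 in the 244.6 mg/kg arrays and at 4.34, 5.48 and 5.71 in the 122.5 mg/kg arrays. Its groups did not overlap, and the difference was 1.65 ± 0.40 (adjusted p = 0.186). Of its 122.5 mg/kg arrays 2 lay under the 20th percentile of all values, and the difference was 1.2 with these set to it. Birc5, survivin, and Plk1, a kinase of spindle assembly, differed by 1.07 ± 0.28 and 0.70 ± 0.20, the second being 0.46 without 122.5 mg/kg replicate 1. For Plk1 the gap between the lowest 244.6 mg/kg array, at 7.92, and the highest 122.5 mg/kg array, at 7.86, was narrow.

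The 12 members for DNA replication and nucleotide supply had smaller differences, from -0.05 to 1.63 with a median of 0.45, and 10 of the 12 did not overlap. Mcm6, a subunit of the replicative helicase, was at 8.09, 7.94 and 7.35 at 244.6 mg/kg, against 5.50, 6.19 and 6.80 at 122.5 mg/kg. It had the largest difference of these 12, of 1.63 ± 0.44 (adjusted p = 0.267). The helicase subunits Mcm2, Mcm3, Mcm5 and Mcm7 differed by 0.39 to 0.42. Tyms, thymidylate synthase, had the smallest adjusted p of the 12, 0.16, with a difference of 0.55 ± 0.12 and values of 6.17, 6.07 and 5.89 at 244.6 mg/kg against 5.30, 5.45 and 5.72 at 122.5 mg/kg. Rrm1, a subunit of ribonucleotide reductase, and Tk1, thymidine kinase, differed by 0.84 ± 0.22 and 0.77 ± 0.22. Pcna, the sliding clamp of DNA polymerase, differed by 0.48 ± 0.18, and Cdt1, which licenses replication origins, by 0.41 ± 0.25. For Cdt1 all 3 arrays at 122.5 mg/kg and 1 at 244.6 mg/kg lay under 5.56, the level to which low values were set. With these set to it the Cdt1 difference was 0.05, so its difference has no reliable size. These 2 subsets of the list were drawn after the values were seen and were not tested against each other.

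The 12 higher genes with the smallest p among those that did not overlap and differed at least 1.5-fold were Mms22l, Cenpn, Bub1b, Ccdc34, Sgo1, Melk, Spdl1, Mis18a, H2az1, Hjurp, Trip13 and Dut. Their adjusted p lay between 0.152 and 0.16, so none passed. All 122.5 mg/kg arrays lay under the 20th percentile of all values for 6 of them (Bub1b, Ccdc34, Sgo1, Melk, Mis18a and Trip13), and for Ccdc34 all 244.6 mg/kg arrays did too. Of these only Bub1b, a spindle checkpoint kinase, was in the cell cycle list. Several of the others serve the centromere and the kinetochore. Cenpn binds the centromeric nucleosome, Hjurp and Mis18a load the centromeric histone, Sgo1 protects centromeric cohesion, and Spdl1 and Trip13 act on the spindle checkpoint and its silencing.

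Mms22l, a factor that helps to repair stalled replication forks, had the smallest p of all genes. It was at 7.36, 7.13 and 6.87 in the 244.6 mg/kg arrays and at 5.91, 6.49 and 6.33 in the 122.5 mg/kg arrays. All 244.6 mg/kg arrays were above the 122.5 mg/kg arrays, by 0.88 ± 0.17 in the mean, or 1.84-fold (adjusted p = 0.152). Cenpn was at 7.33, 7.32 and 6.94 at 244.6 mg/kg and at 5.77, 6.18 and 6.44 at 122.5 mg/kg, a difference of 1.07 ± 0.21. Bub1b was at 6.87, 6.72 and 5.86 at 244.6 mg/kg and at 4.85, 5.32 and 5.54 at 122.5 mg/kg, a difference of 1.25 ± 0.25. In both, replicate 3 at 244.6 mg/kg and replicate 1 at 122.5 mg/kg were again the lowest of their doses.

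The abundant RNAs of this set showed the same order. H2az1, a histone variant placed at promoters, was at 12.71, 12.44 and 12.29 at 244.6 mg/kg, against 11.56, 11.83 and 11.97 at 122.5 mg/kg. Dut, which removes dUTP so that it is not built into DNA, was at 11.06, 10.92 and 10.62 at 244.6 mg/kg, against 9.85, 10.12 and 10.28 at 122.5 mg/kg. Neither gene's groups overlapped, and they differed by 0.69 ± 0.15 and 0.78 ± 0.17. The remaining 6, Ccdc34, Sgo1, Melk, Spdl1, Hjurp and Trip13, differed by 0.62 to 0.98, and Mis18a by 1.03 ± 0.22.

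Each dose was also set against vehicle, and both of these comparisons share the 6 vehicle arrays. At 244.6 mg/kg limma called 359 genes higher (2.52%) and 61 lower (0.429%), and at 122.5 mg/kg 16 higher (0.113%) and 0 lower (408, or 2.87%, at an unadjusted p under 0.05). In the cell cycle list 25 of 33 were called higher than vehicle at 244.6 mg/kg and 0 of 33 at 122.5 mg/kg. All 20 members for G2 and mitosis were among the 25. Of the 114 higher genes described above, 96 were called higher than vehicle at 244.6 mg/kg and 2 at 122.5 mg/kg. These 114 were picked by the same 244.6 and 122.5 mg/kg arrays, so this split follows in part from the pick. A call at one dose and not at the other is no test of the difference between them, which is the comparison that called 0 genes.

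**Figure D3:**
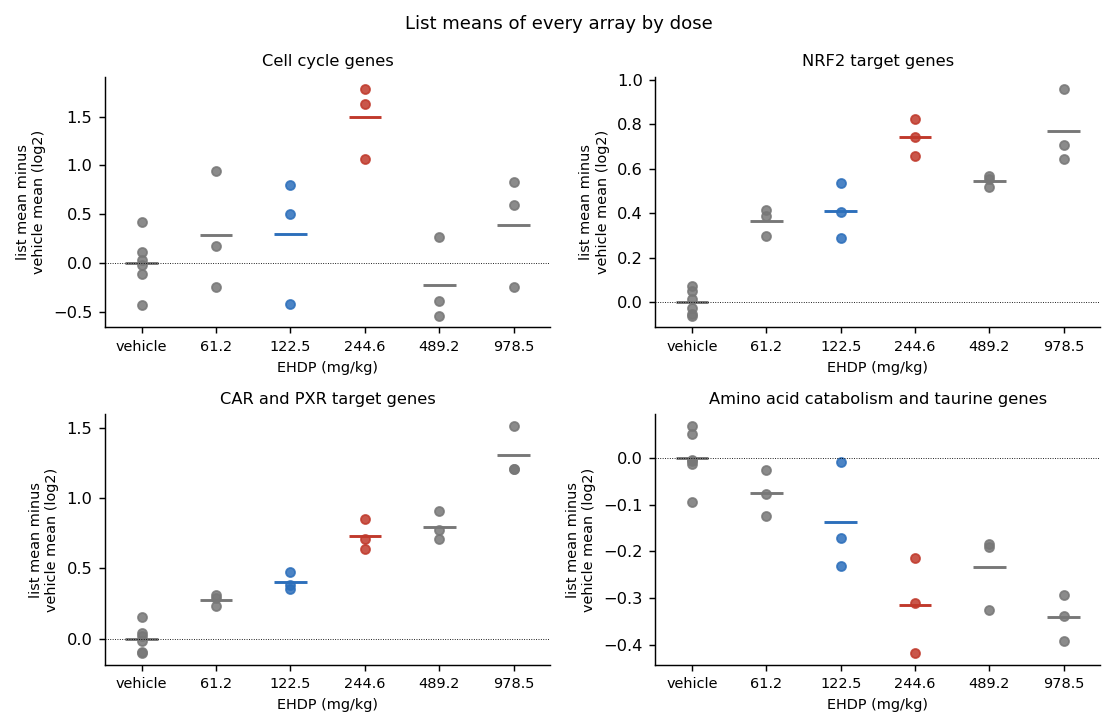
Mean log2 signal of 4 gene lists in every array minus that of the vehicle arrays (y axis) by dose of EHDP in mg/kg (x axis, vehicle at the left); points are arrays and lines group means, with 122.5 mg/kg in blue and 244.6 mg/kg in red. The cell cycle list peaks at 244.6 mg/kg at 1.06 to 1.79 and is lower at 489.2 mg/kg, while the CAR and PXR list has its highest values at 978.5 mg/kg.

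Across the dose series the cell cycle list did not go up steadily. Its mean relative to vehicle was -0.02, -0.11, -0.43, 0.03, 0.42 and 0.11 in the vehicle arrays and 0.94, 0.17 and -0.24 at 61.2 mg/kg. It was -0.42, 0.51 and 0.79 at 122.5 mg/kg, 1.79, 1.63 and 1.06 at 244.6 mg/kg, -0.39, 0.26 and -0.54 at 489.2 mg/kg and 0.83, -0.25 and 0.60 at 978.5 mg/kg. The 244.6 mg/kg arrays were the highest of all 21. Single arrays at 61.2 and 978.5 mg/kg came next, at 0.94 and 0.83. The highest mean of the 6 dose groups was at 244.6 mg/kg for 28 of the 33 members, against 14.0% of all genes.

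Whether the step up to 244.6 mg/kg differed from other steps was tested in the same limma fit. Against the next step, 489.2 over 244.6 mg/kg, 151 genes (1.06%) had a higher difference and 3 (0.0211%) a lower one. Of the cell cycle list 23 of 33 were among the 151. Both steps use the 244.6 mg/kg arrays, so a high or low mean there gives opposite signs in the 2 steps, and these calls rest on those arrays. The count was 0 without 244.6 mg/kg replicate 1 and 0 without replicate 2. Against the step from 489.2 to 978.5 mg/kg, which shares no array, limma called 0 genes higher (237, or 1.67%, at an unadjusted p under 0.05) and 1 lower (0.00703%), the sulfotransferase gene Sult2a2. That count was 0 without 244.6 mg/kg replicate 3, without 122.5 mg/kg replicate 1 and without 122.5 mg/kg replicate 3.

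Target genes of NRF2, the sensor of electrophiles, formed the second group that stood higher at 244.6 mg/kg. Of 26 measured members 13 were higher in every 244.6 mg/kg array and 0 lower, against 6.58% and 4.52% of all genes. A positive difference was seen in 24 of the 26. The list median was 0.33, and 12 members were higher at an unadjusted p under 0.05 and 0 lower. The list mean relative to vehicle was 0.83, 0.74 and 0.66 in the 244.6 mg/kg arrays and 0.29, 0.41 and 0.54 in the 122.5 mg/kg arrays, with no overlap. Limma called 15 members higher than vehicle at 244.6 mg/kg and 4 at 122.5 mg/kg, against 2.52% and 0.113% of all genes. The list mean at 489.2 mg/kg was 0.52, 0.57 and 0.56, below all 3 arrays at 244.6 mg/kg. At 978.5 mg/kg it was 0.96, 0.71 and 0.65, which overlapped with the 244.6 mg/kg arrays.

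Of 5 glutathione transferases in the list, enzymes that join electrophiles to glutathione, 4 were higher without overlap and 0 lower, and the 5 differed by 0.02 to 0.98. Gsta3, with the largest difference, was at 10.82, 10.75 and 10.56 in the 244.6 mg/kg arrays, against 9.23, 9.66 and 10.29 in the 122.5 mg/kg arrays and a vehicle median of 8.03 (lowest 7.54, highest 8.39). Both doses were above vehicle in every array, and the 2 doses did not overlap. The difference between them was 0.98 ± 0.27, or 1.98-fold (adjusted p = 0.276), and limma called Gsta3 higher than vehicle at 244.6 mg/kg (adjusted p = 3.04e-06) and at 122.5 mg/kg (adjusted p = 0.00165). Gsta4, which acts on lipid aldehydes, was at 12.56, 12.10 and 12.55 at 244.6 mg/kg and at 11.97, 11.96 and 12.03 at 122.5 mg/kg, a difference of 0.42 ± 0.11.

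Members for quinone reduction, cystine import and NADPH supply lay on the same side. Nqo1, a quinone reductase, was at 10.41, 10.50 and 10.16 at 244.6 mg/kg and at 9.30, 9.30 and 9.80 at 122.5 mg/kg, a difference of 0.89 ± 0.29 (adjusted p = 0.449). The groups did not overlap. Slc7a11, the cystine importer that feeds glutathione synthesis, differed by 0.55 ± 0.15, Srxn1, which restores peroxiredoxins, by 0.46 ± 0.14, and the NADPH source Me1 by 0.66 ± 0.22 (0.41 without 122.5 mg/kg replicate 1). Tkt, transketolase of the pentose phosphate path, differed by 0.45 ± 0.14 and was the 1 member of the NRF2 list called higher in the test against the step from 244.6 to 489.2 mg/kg. Among the 24 members with a promoter in the table, 5 (20.8%) held TGACNNNGC, the core of the antioxidant response element, against 10.2% of all promoters.

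Targets of CAR and PXR, the receptors for many foreign compounds, were higher at 244.6 mg/kg by a smaller margin. Of 24 measured members 7 were higher without overlap and 0 lower, against 6.58% and 4.52% of all genes. The list median was 0.23, or 0.15 without 244.6 mg/kg replicate 2. The list mean relative to vehicle was 0.85, 0.71 and 0.64 in the 244.6 mg/kg arrays and 0.38, 0.36 and 0.47 in the 122.5 mg/kg arrays, with no overlap. Limma called 11 members higher than vehicle at 244.6 mg/kg and 7 at 122.5 mg/kg, against 2.52% and 0.113% of all genes.

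Members of this list ranged from a marked to a slight difference. Akr1b7, an aldo-keto reductase, was at 8.64, 8.74 and 6.66 in the 244.6 mg/kg arrays, against 5.78, 4.40 and 4.71 in the 122.5 mg/kg arrays and a vehicle median of 4.88 (lowest 4.48, highest 6.82). The groups did not overlap, although the lowest 244.6 mg/kg array was below the highest vehicle array. The difference was 3.05 ± 0.82, with an adjusted p of 0.272. Replicates 2 and 3 at 122.5 mg/kg lay under the 20th percentile of all values, and the difference was 2.38 with these set to it. Abcc3, an exporter of conjugates into blood, was at 10.56, 9.16 and 9.73 at 244.6 mg/kg, against 8.27, 8.37 and 9.02 at 122.5 mg/kg and a vehicle median of 6.94. Its difference was 1.26 ± 0.34 (adjusted p = 0.276), and both doses were called higher than vehicle (adjusted p = 1.66e-05 at 244.6 mg/kg and 0.0323 at 122.5 mg/kg).

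Of the 7 members called higher than vehicle at 122.5 mg/kg, 3 enzymes are given here, each of which differed more from vehicle than between the doses. Cyp3a23-3a1, a main steroid and drug oxidase, was at 14.66, 14.62 and 14.47 at 244.6 mg/kg and at 14.16, 14.26 and 14.28 at 122.5 mg/kg. The difference was 0.35 ± 0.13, against 0.98 between 122.5 mg/kg and vehicle (adjusted p = 0.000292). Ces2c, a carboxylesterase, differed by 0.59 ± 0.30 between the doses (0.34 without 244.6 mg/kg replicate 1) and by 2.19 between 122.5 mg/kg and vehicle (adjusted p = 0.000292). Ugt2b1, a glucuronosyl transferase, differed by 0.27 ± 0.13 between the doses and by 0.97 between 122.5 mg/kg and vehicle (adjusted p = 0.000292). Alas1, the first enzyme of haem synthesis, differed by 0.46 ± 0.22 between the doses and was at 11.30, 11.07 and 11.12 at 244.6 mg/kg against 10.57, 10.87 and 10.68 at 122.5 mg/kg. Single copies of the repeated nuclear receptor word were searched in the promoters of the 22 members in the table. AGTTCA was in 10 (45.5%) against 12.1% of all promoters. AGGTCA was in 7 (31.8%) against 13.7%.

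**Figure D4:**
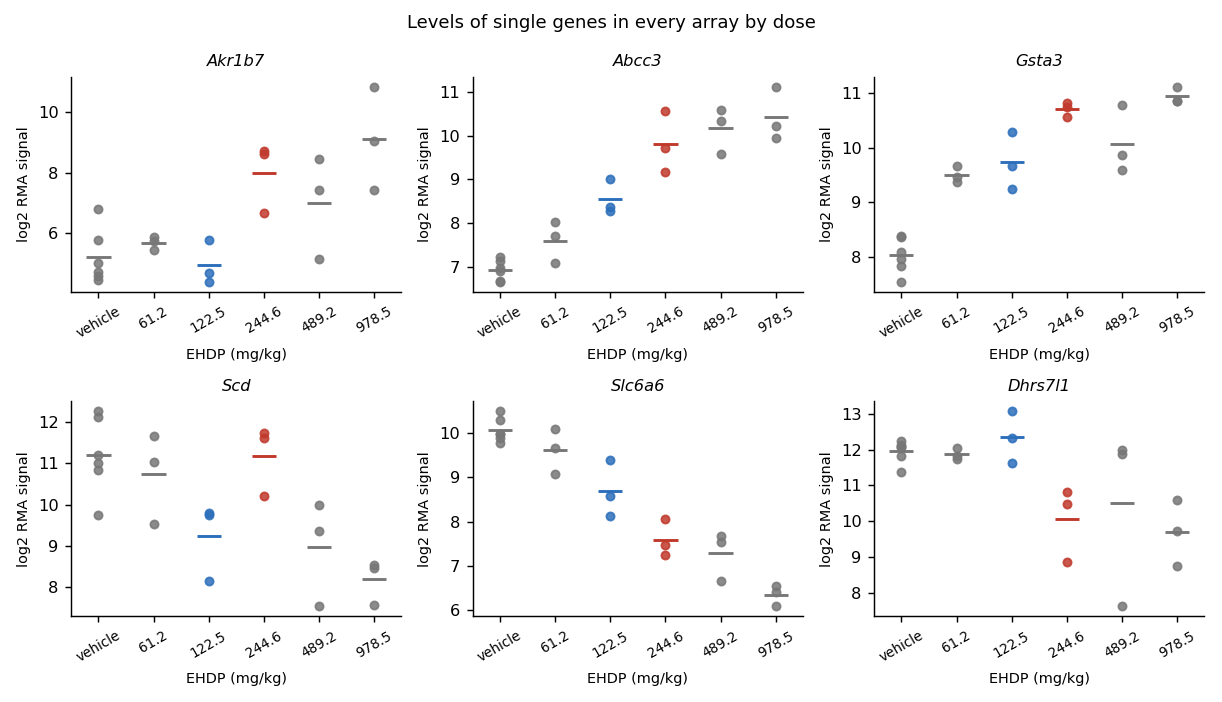
Log2 RMA signal (y axis) of 6 genes in every array by dose of EHDP in mg/kg (x axis, vehicle at the left); points are arrays and lines group means, with 122.5 mg/kg in blue and 244.6 mg/kg in red. Akr1b7 is higher at 244.6 mg/kg, Abcc3 and Gsta3 are already above vehicle at 122.5 mg/kg, Slc6a6 is lower at 244.6 mg/kg than at 122.5 mg/kg and below vehicle at both, and Scd is lower at 122.5 mg/kg than at 244.6 mg/kg.

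Of 8 sulfotransferases among the conjugation genes 1 was higher without overlap and 0 lower, and 4 differences were above 0. Sult2a6, a bile acid and steroid sulfotransferase, was at 12.02, 12.11 and 11.71 at 244.6 mg/kg and at 11.03, 11.09 and 10.62 at 122.5 mg/kg. Its groups did not overlap, and the difference was 1.03 ± 0.27, or 2.04-fold (adjusted p = 0.245). Sult1c2 was at 7.10, 7.67 and 8.48 at 244.6 mg/kg and at 8.62, 9.15 and 8.30 at 122.5 mg/kg, with overlap and a difference of -0.94 ± 0.35 (adjusted p = 0.638), the lowest of the 8, which was -0.61 without 244.6 mg/kg replicate 1. Over the 34 conjugation and export genes 6 were higher and 1 lower without overlap, with a median difference of 0.06. The carboxylesterases and paraoxonases had 0 of 13 members beyond overlap in either direction. Of 10 targets of the aryl hydrocarbon receptor 1 was higher and 1 lower without overlap, and Cyp1a1, its best known target, differed by 0.36 ± 0.36 with overlap, and by 0.06 without 244.6 mg/kg replicate 1.

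Genes of the integrated stress response and of amino acid synthesis gave a mixed picture. Of 26 members 3 were higher and 1 lower without overlap, against 6.58% and 4.52% of all genes. At an unadjusted p under 0.05, 7 were higher and 0 lower, against 3.37% and 1.39% of all genes. The list median was 0.14. Without 122.5 mg/kg replicate 2 this median was 0.06, and without replicate 3 it was 0.25. Psat1, which makes phosphoserine, was at 10.11, 9.91 and 10.20 in the 244.6 mg/kg arrays and at 8.90, 8.54 and 9.54 in the 122.5 mg/kg arrays. The groups did not overlap, and the difference was 1.08 ± 0.34 (adjusted p = 0.424). Asns, asparagine synthetase, and Phgdh, the first enzyme of serine synthesis, differed by 0.88 ± 0.31 and 0.80 ± 0.36, and in both the groups overlapped. Limma called 5 members higher than vehicle at 244.6 mg/kg and 0 at 122.5 mg/kg, against 2.52% and 0.113% of all genes.

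Immediate early genes, which are transcribed within minutes of a stimulus, had 4 of 20 members higher without overlap and 0 lower, with a median of 0.20 (0.13 without 122.5 mg/kg replicate 3). Klf6 was at 7.96, 8.69 and 8.19 at 244.6 mg/kg and at 7.68, 7.52 and 7.29 at 122.5 mg/kg, a difference of 0.78 ± 0.22 (adjusted p = 0.282). Atf3 differed by 0.67 ± 0.25, or 0.40 without 244.6 mg/kg replicate 2, and its groups overlapped. Their list mean relative to vehicle was -0.13, -0.02 and -0.11 at 244.6 mg/kg and -0.23, -0.36 and -0.49 at 122.5 mg/kg, all below the vehicle mean. That mean was drawn up by vehicle replicate 6, which was at 0.53. Against the other 5 vehicle arrays the list mean was -0.02, 0.08 and -0.01 at 244.6 mg/kg and -0.12, -0.26 and -0.38 at 122.5 mg/kg, so only the 122.5 mg/kg arrays were all below it.

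Of the lipid genes, those for fatty acids and triglycerides had a median slightly above the upper quartile of all genes, 0.07. Scd, the desaturase that makes oleate, was at 10.22, 11.61 and 11.73 in the 244.6 mg/kg arrays, against 9.80, 9.76 and 8.16 in the 122.5 mg/kg arrays and a vehicle median of 11.10 (lowest 9.76, highest 12.26). The difference was 1.95 ± 0.68 (adjusted p = 0.582). The 244.6 mg/kg arrays lay within the vehicle range, and only 1 of the 122.5 mg/kg arrays lay clearly below it. Over 28 fatty acid and triglyceride synthesis genes 4 were higher and 1 lower without overlap, with a median of 0.09, which was 0.02 without 244.6 mg/kg replicate 1 and 0.17 without 122.5 mg/kg replicate 1.

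Cholesterol synthesis and uptake genes had 22 of 24 members below 0 and a median of -0.16, with 4 lower and 0 higher without overlap. No member reached an unadjusted p under 0.05. Dhcr7, the last enzyme of cholesterol synthesis, was at 11.60, 11.73 and 11.67 at 244.6 mg/kg and at 11.87, 11.95 and 12.04 at 122.5 mg/kg. Its groups did not overlap, and the difference was -0.28 ± 0.20 (adjusted p = 1). Acat2, which makes acetoacetyl-CoA in the cytosol, was at 9.64, 9.88 and 9.94 at 244.6 mg/kg and at 10.00, 10.22 and 10.27 at 122.5 mg/kg, a difference of -0.34 ± 0.33. The list mean relative to vehicle was 0.02, 0.14 and 0.16 at 244.6 mg/kg and 0.28, 0.26 and 0.26 at 122.5 mg/kg, so the groups did not overlap. Both lay above the vehicle mean but within the range of the vehicle arrays, -0.33 to 0.39.

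Genes that were lower at 244.6 mg/kg were few. The 7 without overlap and at least 1.5-fold lower were Slc6a6, Slc22a8, Nox4, Dhrs7l1, Ubd, Eri2 and Gpt. Slc6a6, the taurine importer, was at 7.26, 8.05 and 7.48 in the 244.6 mg/kg arrays, against 8.58, 9.38 and 8.12 in the 122.5 mg/kg arrays and a vehicle median of 9.97 (lowest 9.77, highest 10.48). Every array at either dose was below every vehicle array, and the 2 doses did not overlap. The difference was -1.10 ± 0.31, or 2.14-fold lower (adjusted p = 0.305), and against vehicle limma called Slc6a6 lower at 244.6 mg/kg (adjusted p = 3.29e-05) and gave an adjusted p of 0.0501 at 122.5 mg/kg. A second probe set of Slc6a6 differed by -0.40.

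Transport and redox genes were among the other lower ones. Slc22a8, an importer of organic anions, was at 10.83, 10.98 and 11.20 at 244.6 mg/kg and at 11.56, 12.02 and 11.71 at 122.5 mg/kg, a difference of -0.76 ± 0.23 (adjusted p = 0.38). Nox4, an NADPH oxidase that makes hydrogen peroxide, was at 5.97, 6.07 and 6.86 at 244.6 mg/kg and at 7.12, 7.33 and 7.07 at 122.5 mg/kg, a difference of -0.87 ± 0.28 (adjusted p = 0.456). Neither gene's groups overlapped. Gpt, alanine aminotransferase, the liver enzyme measured in serum as a sign of injury, was at 9.78, 10.44 and 9.98 at 244.6 mg/kg and at 10.54, 11.14 and 10.62 at 122.5 mg/kg. It differed by -0.70 ± 0.29 (adjusted p = 0.791).

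The widest differences of the lower genes were also the least even. Dhrs7l1, a dehydrogenase/reductase family gene, was at 8.85, 10.48 and 10.82 in the 244.6 mg/kg arrays, against 11.63, 13.07 and 12.33 in the 122.5 mg/kg arrays and a vehicle median of 12.07 (lowest 11.38, highest 12.25). The 244.6 mg/kg arrays were below all vehicle arrays and the 122.5 mg/kg arrays were not. The difference was -2.29 ± 0.79 (adjusted p = 0.529). Ubd, the ubiquitin-like protein FAT10, was at 6.21, 6.58 and 6.41 at 244.6 mg/kg, against 10.89, 6.66 and 9.79 at 122.5 mg/kg and a vehicle median of 9.48 (lowest 8.24, highest 11.42). Its second array at 122.5 mg/kg was close to the 244.6 mg/kg arrays, and the difference of -2.71 ± 1.0 (adjusted p = 0.631) was -1.82 without replicate 1 at 122.5 mg/kg. Eri2, an exonuclease gene, differed by -0.60 ± 0.23 on its brightest probe set (-0.37 without 122.5 mg/kg replicate 2) and by 0.11 on another.

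Genes of amino acid breakdown and taurine handling had 6 of 30 members lower and 1 higher without overlap, against 4.52% and 6.58% of all genes. Their median was -0.08, with 24 members below 0. At an unadjusted p under 0.05, 5 were lower and 0 higher. Prodh, which starts proline breakdown, was at 9.56, 9.85 and 9.69 at 244.6 mg/kg and at 10.06, 10.35 and 10.07 at 122.5 mg/kg, a difference of -0.46 ± 0.14 (adjusted p = 0.413). Gnmt, which uses up S-adenosylmethionine, was at 11.82, 12.36 and 12.33 at 244.6 mg/kg and at 12.56, 12.77 and 12.47 at 122.5 mg/kg, a difference of -0.43 ± 0.16 (-0.26 without 244.6 mg/kg replicate 1). Neither gene's groups overlapped. Oat, an ornithine aminotransferase of pericentral hepatocytes, differed by -0.69 ± 0.27, or -0.43 without 244.6 mg/kg replicate 1, and its groups overlapped. Limma called 4 members lower than vehicle at 244.6 mg/kg, against 0.429% of all genes.

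**Figure D5:**
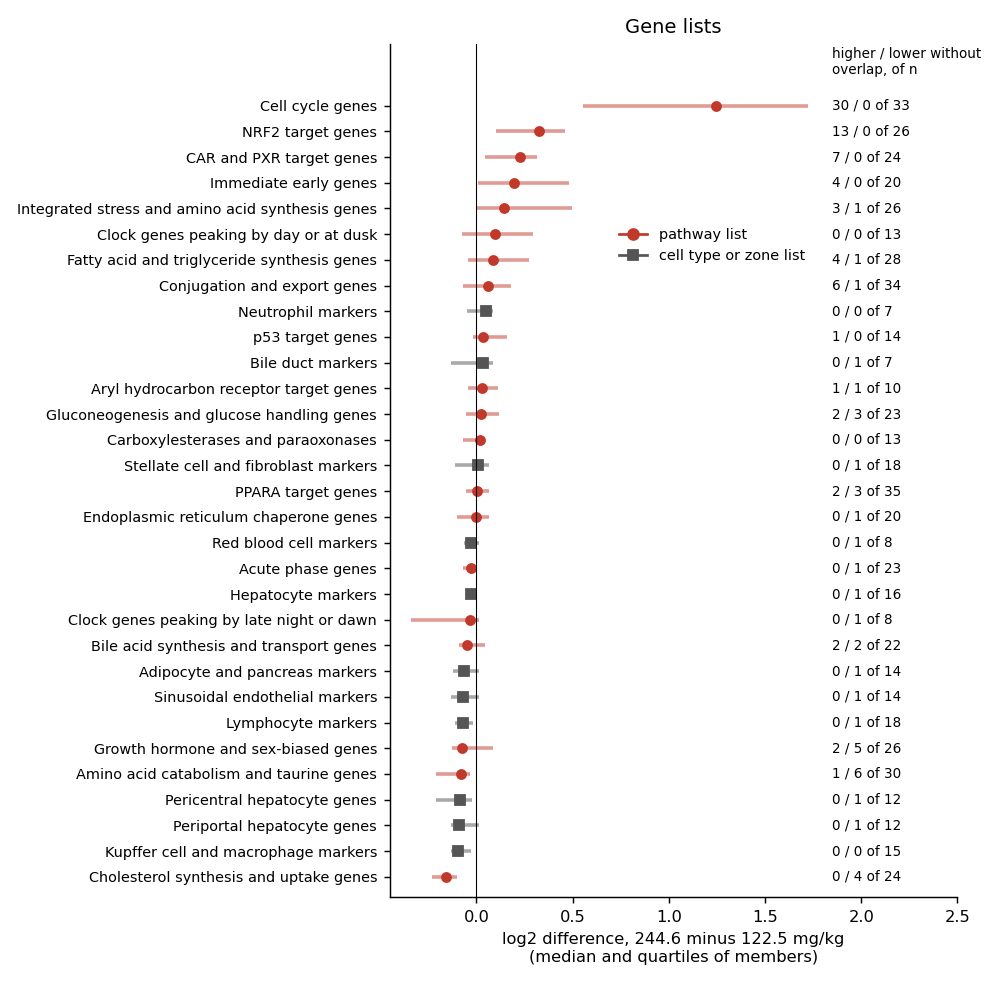
Median (symbol) and quartiles (line) of the log2 difference, 244.6 minus 122.5 mg/kg, over the members of 31 gene lists; pathway lists are red circles and cell type or zone lists grey squares, and the figures at the right count members higher and lower without overlap. The cell cycle list, at 1.25, lies apart, NRF2 target genes follow at 0.33, and cholesterol genes are lowest at -0.16.

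The other lists lay close to the median of all genes. Leaving out 1 array moved 27 of the 31 list medians by over 1.5 times or turned their sign, the exceptions being the cell cycle, NRF2, cholesterol and conjugation lists. Over all genes 6.58% were higher and 4.52% lower without overlap. PPARA target genes, which serve fatty acid oxidation, had 2 of 35 higher and 3 lower without overlap and a median of 0.00. Bile acid genes had 2 of 22 in each direction and a median of -0.05. Genes of gluconeogenesis had 2 of 23 higher and 3 lower. Chaperones of the endoplasmic reticulum had 0 of 20 higher and 1 lower, acute phase genes 0 of 23 higher and 1 lower, and p53 target genes 1 of 14 higher and 0 lower. Growth hormone and sex-biased genes had 2 of 26 higher and 5 lower, with a median of -0.08.

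Clock genes were read because liver RNA follows the time of day, and the labels give no hour of necropsy. Of 13 clock genes peaking by day or at dusk 0 were beyond overlap in either direction, and the median was 0.10. Dbp, a clock output factor, was at 6.63, 6.12 and 8.01 in the 244.6 mg/kg arrays and at 7.08, 5.81 and 6.33 in the 122.5 mg/kg arrays. The groups overlapped, replicate 3 at 244.6 mg/kg was the highest of the 6 arrays, and the difference of 0.51 ± 0.52 was -0.03 without it. Of 8 clock genes peaking by late night or dawn 1 was lower without overlap, and Npas2 differed by -0.35 ± 0.20 with overlap (-0.16 without 244.6 mg/kg replicate 1). The 244.6 mg/kg replicate 3, the highest array for Dbp, was the lowest of its dose in the cell cycle list. The part of clock time in that result was not tested.

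Markers of other cells of the liver were set beside the cell cycle list, since dividing immune or stromal cells also carry those RNAs. Of 141 entries in the cell type and zone lists, where a gene may stand in more than 1, 0 were higher and 9 lower without overlap. Over all genes 6.58% were higher and 4.52% lower in this way. Kupffer cell and macrophage markers had 0 of 15 beyond overlap, and their list mean relative to vehicle was -0.75, -0.30 and -0.10 at 244.6 mg/kg and -0.17, -0.33 and -0.37 at 122.5 mg/kg. Lymphocyte markers had 0 of 18 higher and 1 lower, with list means of -0.45, -0.13 and -0.14 at 244.6 mg/kg and -0.18, -0.18 and -0.15 at 122.5 mg/kg. Within the 244.6 mg/kg group the array with the lowest macrophage and lymphocyte markers, replicate 1, had the highest cell cycle list mean.

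Stromal, vascular and duct markers also overlapped for most members. Stellate cell and fibroblast markers had 0 of 18 higher and 1 lower. Sinusoidal endothelial markers (14 members), bile duct markers (7) and red blood cell markers (8) each had 0 higher and 1 lower, and neutrophil markers had 0 of 7 in either direction. The defining markers were measured in every array. Cd163 of macrophages averaged 7.86 ± 0.43 at 244.6 mg/kg and 8.01 ± 0.19 at 122.5 mg/kg (SD, n = 3 each). Stab2 of sinusoidal endothelium averaged 9.64 ± 0.45 at 244.6 mg/kg and 9.63 ± 0.54 at 122.5 mg/kg. Krt19 of bile ducts averaged 6.23 ± 0.20 at 244.6 mg/kg and 6.58 ± 0.26 at 122.5 mg/kg. The arrays of both doses overlapped for each of these genes. Hepatocyte markers had 15 of 16 members below 0, by a median of -0.03. Glul, glutamine synthetase of pericentral hepatocytes, was at 11.79, 11.88 and 11.63 at 244.6 mg/kg and at 11.98, 12.06 and 12.14 at 122.5 mg/kg, without overlap. The part of any of these cells in the differences was not tested.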

How the data were processed

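Liver RNA of 21 rat samples was measured on Affymetrix arrays. Per the submitters' processing notes the authors used RMA, whose version is not given in the sources used here, and deposited log2 values of 31099 probe sets. Through the platform annotation 20832 probe sets had 1 gene, 436 had several and 9831 had none; 20764 had a gene ID in RefSeq GRCr8, and the brightest per gene gave 14218 genes. The rest were not used. Limma 3.58.1 in R 4.3.3 was fitted with 1 mean per dose over all 21 arrays (15 residual degrees of freedom), with Benjamini-Hochberg adjustment at 0.05. SE is that of the fit. Depth does not apply to arrays, and their number limits precision.

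The members and the 31 gene lists (599 of 681 entries measured) were chosen with earlier results of these data known. Named genes were the 12 higher and 12 lower with the smallest p that did not overlap and differed at least 1.5-fold (7 lower qualified), the 3 smallest p of each pathway list, known responders, and the largest calls of the step differences. Other members of the cell cycle, NRF2, CAR and PXR, stress, amino acid and cholesterol lists were named after their values were seen. Promoters came from RefSeq GRCr8; besides the words in the report, TTATGTAA, TTATGCAA, TAGGTCA and CACGTG were searched. The labels give 5 vehicle rats while 6 arrays carry dose 0, and all 6 were used. Same-numbered arrays of the 2 doses did not deviate together and were not treated as pairs. With 3 arrays a dose this cannot show whether replicate numbers mark a shared batch. The fit was tested on simulated data. Alternatives covered probe sets, low-value filters, scaling, variance model, array weights, replicate block and leaving out arrays.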

Additional observations from a re-analysis of the deposited data

Results flagged for a closer look

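The step from 122.5 to 244.6 mg/kg differed from the step from 244.6 to 489.2 mg/kg in 154 genes by limma. The 244.6 mg/kg arrays enter both steps, so a high or low mean at 244.6 mg/kg alone produces such a difference. Ccna2 differed between the steps by 5.99 on the log2 scale (adjusted p = 0.0224), Mki67 by 5.64 (adjusted p = 0.0224) and Ccnb2 by 5.11 (adjusted p = 0.0234). With values under the 20th percentile of all values (5.56) set to it, these differences were 4.11 for Ccna2 (adjusted p = 0.0165), 4.39 for Mki67 (adjusted p = 0.0469) and 5.04 for Ccnb2 (adjusted p = 0.0859). These 3 had their highest values at 244.6 mg/kg and lower ones at 489.2 mg/kg, where Ccna2 was at 4.26, 5.07 and 3.64, all under the 20th percentile. Prodh differed by -1.15 (adjusted p = 0.0235), Slco2a1, a prostaglandin transporter, by -0.78 (adjusted p = 0.0459) and Apobec2, a deaminase family gene, by -0.63 (adjusted p = 0.0485). All Apobec2 arrays of these 3 doses lay under the 20th percentile, so its difference has no reliable size. Slco2a1 was at 11.46, 11.26 and 11.52 at 244.6 mg/kg, against 11.99, 11.83 and 11.51 at 122.5 mg/kg.

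The step from 489.2 to 978.5 mg/kg, which shares no array with the comparison, differed in 1 gene. Sult2a2 differed between the steps by -3.07: it was at 3.90, 4.13 and 3.69 at 244.6 mg/kg, against 3.70, 3.61 and 3.75 at 122.5 mg/kg, while at 978.5 mg/kg it was at 7.13, 6.74 and 8.53, against 4.81, 3.68 and 4.05 at 489.2 mg/kg. All arrays at 122.5, 244.6 and 489.2 mg/kg lay under the 20th percentile, and with these set to it the difference was -1.90 (adjusted p = 0.572). Vehicle values of 10 genes and 7 lists were checked for a lone array, where chance would mark about 1 in 20. Vehicle replicate 6 was far above the others in the immediate early list, at 0.53 relative to the vehicle mean. Vehicle replicate 5 was far below the others in the Kupffer cell and macrophage list, at -0.298.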

How the results depend on the processing

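For 244.6 against 122.5 mg/kg limma called 0 genes, and the count was 12 with low values set to the 20th percentile, 477 with array quality weights, 677 at an unadjusted p under 0.05, 142 when a 1.5-fold difference was added, and 0 to 32 when single arrays were left out. Setting low values to the same level removes their spread, so calls with that setting can rest on small differences. With it Trip13 passed at a difference of 0.24 (limma adjusted p = 7.63e-11). All vehicle, 122.5, 489.2 and 978.5 mg/kg arrays of Trip13 lay under the 20th percentile. Of the other settings those that changed probe sets, scaling, variance model or arrays also gave 0 calls. With the replicate block it was 0, and with the block on the 6 arrays alone, added after seeing the data, 2 (Dhrs7l1 and Sult2a6). Same-numbered arrays correlated by -0.17, 0.12 and -0.14 in their deviations, too few values to show whether the numbers mark a shared batch. The 154 calls against the step to 489.2 mg/kg became 27 above the median level, 54 with the low values set, 343 with weights, 0 with the block, 1135 unadjusted, 513 with the fold added and 0 to 174 when arrays were left out. The 1 call against the step to 978.5 mg/kg became 0 above the median level, with the trend and robust options and with the block, 3 with the low values set, 470 unadjusted, 83 with the fold added and 0 to 1 when arrays were left out. List medians moved as follows. Conjugation genes gave 0.0415 above the median level, 0.0377 with median centring, 0.0371 with weights and 0.0437 to 0.0767 without single arrays. Above the median level, cell cycle genes gave 0.66, bile duct markers 0.42, stellate markers -0.11 and adipocyte and pancreas markers -0.19 (-0.0103 with low values set). With weights, integrated stress genes gave 0.38 and pericentral genes -0.24. Without single arrays, PPARA genes ranged from -0.083 to 0.0755, gluconeogenesis genes from -0.00647 to 0.0879, periportal genes from -0.171 to -0.0259, pericentral genes from -0.232 to -0.0364, neutrophil markers from -0.0442 to 0.0666 and adipocyte markers from -0.0829 to 0.00543. The other 477 of 495 list values moved by less than the spread between arrays. Ccne2 turned positive with the mean of its probe sets (0.10) and with weights (0.13), and ranged from -0.162 to 0.112 without single arrays; Dbp ranged from -0.0336 to 0.913. Leaving out 1 array moved 20 of the 73 named genes by over 1.5 times or turned their sign, 12 of them when it was 122.5 mg/kg replicate 1. Of 1134 values of named genes, 1062 kept direction and side of the threshold and 67 passed it. The cause of these shifts was not tested. With 3 arrays a dose and a median SE of 0.112, small differences are not detectable.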
